A study of Mus musculus with 10 samples.

Results

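The genes of the Hoxa cluster were examined for the repressive histone mark H3K27me3 in fetal liver LT-HSCs, the long-term hematopoietic stem cells. The 9 genes were Hoxa3, Hoxa4, Hoxa5, Hoxa6, Hoxa7, Hoxa9, Hoxa10, Hoxa11 and Hoxa13, out of 21938 protein-coding genes on the main chromosomes. A peak was assigned to a gene when it overlapped the gene body or the promoter window of any annotated start site, which ran from 5 kb before to 100 bp after the site.

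The mark was measured by CUT&Tag, in which an antibody guides the Tn5 transposase to cut DNA beside the marked histone. LT-HSCs were sorted as LSK CD48-CD150+ cells from mouse fetal livers at E14.5, with 3 libraries from wild-type (WT) embryos and 3 from embryos lacking IκBα (KO), the NF-κB inhibitor encoded by Nfkbia. The knockout is constitutive, so every cell of the KO embryo lacks the gene, and the cells around the stem cells are not wild type either. The other 4 samples of the series, CUT&Tag for IκBα itself, were not used here.

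Hox genes encode homeodomain transcription factors that lie in clusters, and their order along the chromosome follows the order in which they are used along the body axis. H3K27me3, laid down by the polycomb repressive complex PRC2, covers Hox genes that a cell keeps silent, often as one broad domain, while the trithorax-type methyltransferase encoded by Kmt2a acts at active ones. Genes in the middle of the Hoxa cluster, Hoxa9 above all, are known for their use in hematopoietic stem and progenitor cells, whereas Hoxa11 and Hoxa13 are best known from limb and urogenital development.

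Peak numbers differed widely between replicates. Replicates 1 and 2 of both genotypes (75 bp reads) held between 4160 and 6013 peaks, WT replicate 3 held 1047 and KO replicate 3 held 2325 (both 50 bp). The median peak reached a maximum of only 6 to 10 fragments. Nfkbia had no peak at its promoter or body in any of the 6 libraries, so the mark gives no check of the genotype labels. None of 11 HSC markers and none of 3 erythroid markers had a promoter peak in any library, against 1 of 5 hepatoblast markers (Foxa2), 1 of 4 endothelial markers (Kdr) and 4 of 4 neural markers. The Kdr promoter had a peak in 1 WT library only. Of all coding genes, 15.8% had a promoter peak in at least 1 library. A gene without a peak is not shown to be expressed, since a peak records only the strongest blocks of the mark.

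The cluster lies on chromosome 6 of GRCm38, with its genes on the minus strand. Hoxa13 therefore sits at the high-coordinate end. Promoter bases before the start site are shown for genes on each side of the edge of the mark, 5′ to 3′ on the minus strand, with CpG dinucleotides in capitals (RefSeq, GRCm38.p6). Hoxa9 and Hoxa5 are shown as genes with no peak over the printed bases in any library. Hoxa10 is shown with the start sites of both its short and its long coding transcript, because the edge fell around them. Hoxa11 and Hoxa13 are shown as genes on the marked side of the edge. Their printed bases held no peak in WT replicates 2 and 3 (Hoxa11) or in WT replicates 1 and 3 (Hoxa13).
Hoxa5, chr6:52204588-52204837: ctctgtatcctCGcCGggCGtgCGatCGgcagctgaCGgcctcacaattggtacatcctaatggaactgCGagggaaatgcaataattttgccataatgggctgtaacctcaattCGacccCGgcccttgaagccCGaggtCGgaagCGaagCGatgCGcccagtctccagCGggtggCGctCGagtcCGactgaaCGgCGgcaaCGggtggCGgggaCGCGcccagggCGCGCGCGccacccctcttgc
Hoxa9, chr6:52227371-52227620: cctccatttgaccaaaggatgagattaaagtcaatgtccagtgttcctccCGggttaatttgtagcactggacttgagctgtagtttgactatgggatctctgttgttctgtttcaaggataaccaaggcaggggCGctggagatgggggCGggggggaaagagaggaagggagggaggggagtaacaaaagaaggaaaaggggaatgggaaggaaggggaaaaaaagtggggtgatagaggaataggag
Hoxa10 short, chr6:52234940-52235189: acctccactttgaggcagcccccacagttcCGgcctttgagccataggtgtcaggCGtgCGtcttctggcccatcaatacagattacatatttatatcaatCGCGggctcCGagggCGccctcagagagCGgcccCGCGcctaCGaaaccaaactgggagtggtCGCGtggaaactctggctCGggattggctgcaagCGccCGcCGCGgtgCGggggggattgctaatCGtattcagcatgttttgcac
Hoxa10 long, chr6:52240855-52241104: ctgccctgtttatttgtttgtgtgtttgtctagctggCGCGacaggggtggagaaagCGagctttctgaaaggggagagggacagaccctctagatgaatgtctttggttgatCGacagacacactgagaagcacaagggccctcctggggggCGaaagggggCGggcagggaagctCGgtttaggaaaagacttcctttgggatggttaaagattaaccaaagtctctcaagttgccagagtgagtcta
Hoxa11, chr6:52245811-52246060: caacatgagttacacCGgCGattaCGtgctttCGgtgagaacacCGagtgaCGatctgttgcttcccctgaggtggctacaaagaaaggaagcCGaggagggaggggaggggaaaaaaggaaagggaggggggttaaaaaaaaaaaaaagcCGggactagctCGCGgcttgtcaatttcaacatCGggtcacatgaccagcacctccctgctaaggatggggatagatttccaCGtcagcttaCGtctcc
Hoxa13, chr6:52260881-52261130: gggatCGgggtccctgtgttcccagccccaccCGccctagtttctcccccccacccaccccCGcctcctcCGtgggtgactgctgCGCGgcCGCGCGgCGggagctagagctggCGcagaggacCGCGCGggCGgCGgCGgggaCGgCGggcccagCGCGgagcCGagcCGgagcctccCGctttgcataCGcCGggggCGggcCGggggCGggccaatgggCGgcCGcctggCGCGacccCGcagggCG

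The mark divided the genes into an unmarked and a marked side. Hoxa4, Hoxa5, Hoxa6 and Hoxa7 had no peak at promoter or body in any of the 6 libraries, and Hoxa3 had only a body peak, in 1 library. At the other end of the cluster, Hoxa10 and Hoxa11 had a promoter peak in 6 of 6 libraries and Hoxa13 in 5. Promoter peaks were thus present in at least 1 library for 4 of 9 genes, the fourth being Hoxa9, against 15.8% of all coding genes. In all 3 WT libraries they were present for 2 (3.01% of coding genes), in all 3 KO libraries for 3 (7.12%), and in all 6 libraries for 2 (2.65%). By library, 4, 3 and 2 of the genes had a promoter peak in WT replicates 1, 2 and 3, and 4, 4 and 3 in the KO replicates. Of all coding genes, 10.6, 12.9 and 3.46% had one in the WT replicates and 12.9, 12.2 and 8.06% in the KO replicates. Neighbouring Hox genes share peaks and windows, so these genes are not independent of one another.

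**Figure D1:**
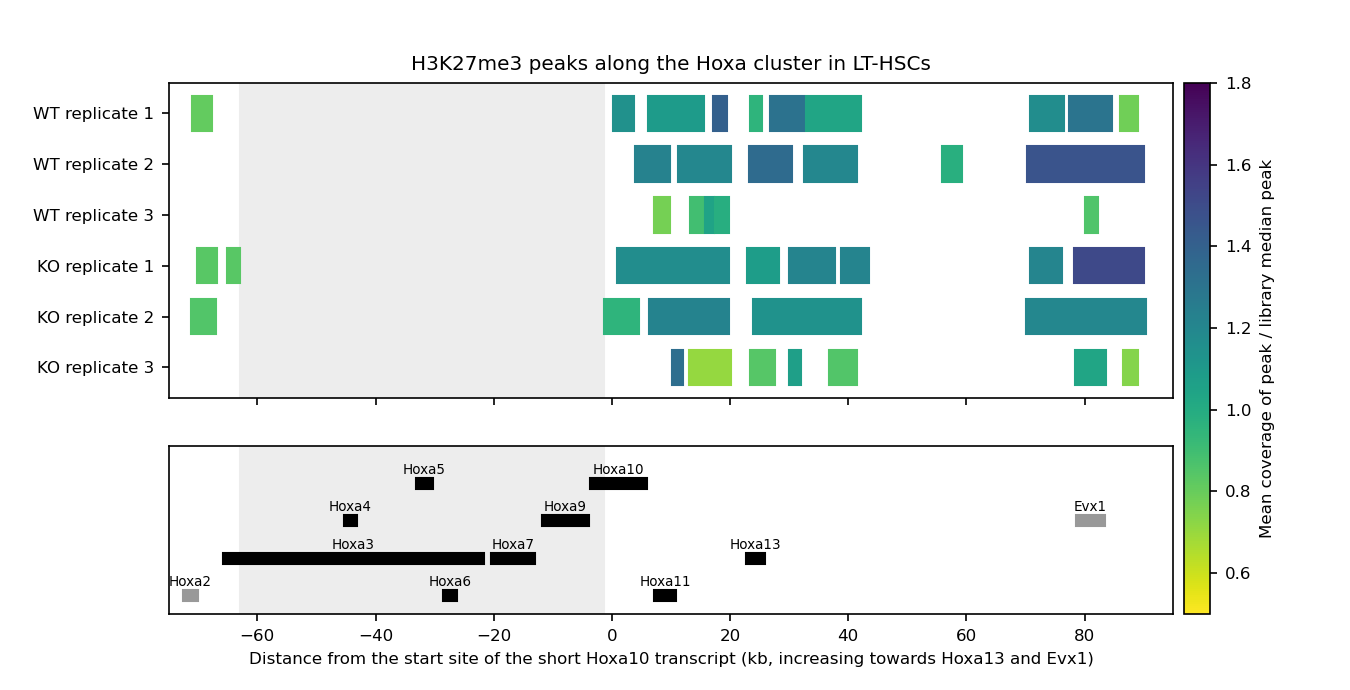
Peaks of each library (bars, 1 row per library, coloured by mean coverage relative to the library's median peak) over gene models of the Hoxa cluster and Evx1 (black, the 9 genes; grey, neighbours), against distance in kb from the start site of the short Hoxa10 transcript. The shaded 61.6 kb held no peak in any of the 6 libraries, and peaks resumed over Hoxa10 in 4 libraries and at or inside Hoxa11 in WT replicate 3 and KO replicate 3.

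The peak-free stretch was measured in each library as the longest run of the cluster without a peak. In WT it spanned 67.9, 80.3 and 83.0 kb (replicates 1, 2 and 3), and in KO 63.7, 65.7 and 85.6 kb. Shared by all 6 libraries were 61.6 kb, chr6:52172069-52233669, which held every start site of Hoxa3, Hoxa4, Hoxa5, Hoxa6, Hoxa7 and Hoxa9. At its lower end, the stretch began beyond a peak over Hoxa2 in WT replicate 1 and KO replicate 2, and inside Hoxa3 in KO replicate 1.

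The upper edge, where the mark resumed, lay within the span of Hoxa10 and Hoxa11 and not at a fixed base. Measured from the start site of the short Hoxa10 transcript (52234939), it lay 208 bp upstream in WT replicate 1, 3955 bp in replicate 2 and 7159 bp in replicate 3. In KO it lay 818 bp upstream in replicate 1, 1269 bp downstream in replicate 2 and 10221 bp upstream in replicate 3. The 2 libraries with 50 bp reads and few peaks had the edges farthest from Hoxa9, at or inside Hoxa11. Among the 75 bp libraries, however, WT replicate 2 had the most peaks (6013) and also the edge farthest from Hoxa9. The part of read length, peak number or depth in the position of the edge was not tested.

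Neither the length of the stretch nor its ends differed between genotypes beyond the spread of replicates. Mean length was 77.1 ± 8.06 kb in WT against 71.7 ± 12.1 kb in KO (SD, n = 3 each), with p = 0.7 in an exact two-sided permutation test whose smallest possible value is 0.1. The lower end lay 4.88 kb higher in KO (exact permutation p = 0.2) and was higher in KO in each same-numbered pair, but the difference was 0.265 kb with equal numbers of top peaks and 2.10 kb without KO replicate 1. For the upper end, KO minus WT was -0.517 kb (exact permutation p = 0.9).

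Hoxa9, a regulator of stem and progenitor expansion, bordered the edge. Its 5 annotated start sites were outside peaks in all libraries, and its body held none. Its promoter was nevertheless called in WT replicate 1 and KO replicates 1 and 2, through windows of noncoding transcripts that start upstream of the coding ones and reach towards Hoxa10. The nearest peak to the main coding start of Hoxa9 (52227370) lay 7777, 11524 and 14728 bp from it in the WT libraries. For the KO libraries this distance was 8387, 6300 and 17790 bp. With windows of 1 kb either side of a start site, Hoxa9 was called in 0 of 6 libraries. Peaks covered 7.26, 0 and 0% of its locus (promoter windows and body together) in WT, replicates in order, against 2.56, 18.6 and 0% in KO, so the groups overlapped.

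Hoxa3, which takes part in pharyngeal and skeletal patterning, had a single peak in KO replicate 1, chr6:52169825-52172068, over an exon at the Hoxa2 end of its locus. The total signal of this peak was 7431 and its maximum 8 fragments. Of the peaks of that library, itself included, 9.69% had a total no larger than this. The start sites of Hoxa3 lay at least 11787 bp from a peak in every library. Hoxa4, Hoxa5, Hoxa6 and Hoxa7, which pattern cervical and thoracic levels of the axis, were at 0% in all 6 libraries.

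Hoxa10, known in stem and progenitor cells and in the reproductive tract, straddled the edge. Its locus was covered to 57.6, 39.9 and 18.6% in the WT libraries, in replicate order, and to 68.9, 71.6 and 4.74% in KO. The lowest and the highest values both came from KO. The start of the long coding transcript (52240854) was inside a peak in WT replicate 2 and KO replicate 1, and that of the short one in KO replicate 2 alone. In WT replicate 3 and KO replicate 3 the body of Hoxa10 held no peak. The promoter call rested there on a peak over Hoxa11, which lies within the 5 kb window of the long transcript. With windows of 1 kb either side of a start site, Hoxa10 was called in 2 WT and 2 KO libraries.

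Hoxa11, a regulator of limb and kidney development, was the most fully covered of the 9 genes by mean share in both genotypes. Its locus was covered to 96.3, 83.1 and 56.7% in WT and to 100, 100 and 52.2% in KO. Its coding start site was inside a peak in WT replicate 1 and in all 3 KO libraries. In WT replicate 2 it fell in a break between peaks, 399 bp from the nearer one, and in WT replicate 3 it was 984 bp away.

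Hoxa13, which specifies distal limb and hindgut, was covered to 76.4, 89.8 and 0% in WT and to 76.9, 86.1 and 62.9% in KO. Only WT replicate 3, the library with the fewest peaks, held no peak over the gene. The start of its main transcript (52260880) was inside a peak in WT replicate 2 and all 3 KO libraries, and 489 bp from one in WT replicate 1.

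For Hoxa11 and Hoxa13, then, a start site was inside a peak in 1 WT library and in 3 KO libraries. This count was chosen after its values were seen. Of all coding genes, 0.748% had a start site inside a peak in at most 1 WT and all 3 KO libraries, and 0.082% in all 3 WT and at most 1 KO library. The KO libraries also held the larger peak set in replicate 3, and the part of peak number or depth in this count was not tested.

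**Figure D2:**
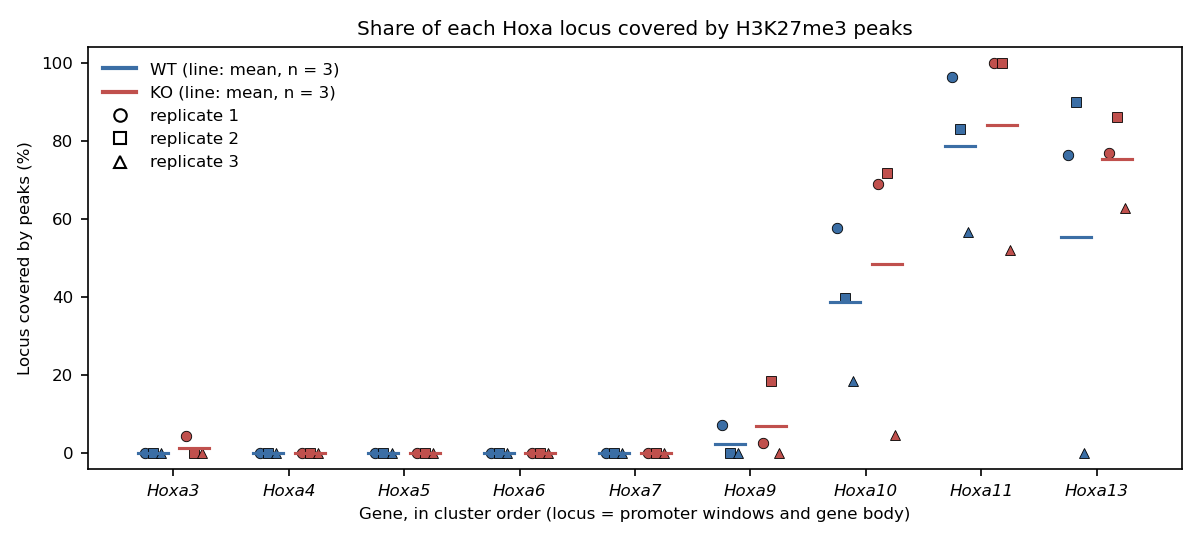
Percent of each locus (promoter windows and gene body) covered by peaks in the 3 WT (blue) and 3 KO (red) libraries, with symbols for replicate numbers and lines for means. Hoxa4 to Hoxa7 were at 0 in all 6 libraries, and WT and KO values overlapped at Hoxa10, Hoxa11 and Hoxa13.

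Coverage of loci was compared between genotypes by limma over 2900 coding genes touched by peaks in at least 3 libraries. None passed an adjusted p of 0.05 (0% called), and 37 had an unadjusted p below 0.05. Of the 9 genes, 4 entered the fit and 5 did not, because fewer than 3 libraries had a peak there. KO minus WT was 4.64 percentage points for Hoxa9 (SE 3.50), 9.74 for Hoxa10 (SE 23.6), 5.34 for Hoxa11 (SE 35.1) and 19.9 for Hoxa13 (SE 30.2), and the median over all genes fitted was 1.05. Standard errors of 23.6 to 35.1 points at Hoxa10, Hoxa11 and Hoxa13 limit the size of a shift that could be detected there. Without KO replicate 3 the Hoxa9 difference was 8.18 points (limma adjusted p = 0.962).

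The signal within the marked side was read at regions called in all 6 libraries. Such regions joined the overlapping peaks of all libraries, so no library had to cover one in full, and totals sum over unlike widths. One such region spanned 21.5 kb over Hoxa10 and Hoxa11, chr6:52233670-52255142. Its part over the body of Hoxa10 held no peak in WT replicate 3 or KO replicate 3. Its total signal, the deposited sum of fragment coverage without scaling to depth, came to 65373, 66437 and 20451 for the WT libraries, and 88018, 82144 and 28021 for the KO libraries. At its highest point it reached 12, 13 and 6 fragments in WT, against 12, 13 and 10 in KO.

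Relative to the median shared region of its library, the total was 2.45, 1.94 and 4.38 times as large in WT and 2.403, 2.77 and 1.75 times in KO. The region was thus above the median in every library, and the highest ratio came from WT replicate 3, where peaks were few. On the centred log2 scale KO was lower by a difference of -0.28 (SE 0.40, limma adjusted p = 0.991), within the spread of replicates. Of 717 regions, 0% passed an adjusted p of 0.05 and 9 had an unadjusted p below 0.05. Hoxa13 lay in no region called in all 6 libraries, since WT replicate 3 had no peak there.

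The mark lay between genes as well. The interval between Hoxa11 and Hoxa13 was covered to between 49.8 and 75.2% in the 6 libraries. Past Hoxa13, the interval to Evx1 was covered to 41.6, 47.9 and 0% in WT, against 39.3, 46.7 and 16.3% in KO, so WT replicate 3 had no peak there. Evx1, a homeobox gene beyond Hoxa13, was covered over its body to 44.9% in WT replicate 3 and wholly in the other 5. At Hoxa2, below Hoxa3, 1 WT library and 2 KO libraries carried a peak at the promoter. Skap2, Snx10 and Hibadh, the non-Hox genes flanking the domain, had no peak in any library. Of noncoding genes inside the stretch, Hoxaas3 and Mir196b were at 0% in all libraries.

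Windows rich in CpG lay on both sides of the edge. The promoter windows of 300 bases held 29 CpGs at Hoxa5, 26 at Hoxa6 and 20 at Hoxa3, all without a peak over the window, and 15 at Hoxa11 and 12 at the long Hoxa10 transcript, with peaks in 4 and 3 libraries. The window of the short Hoxa10 transcript held 21, with peaks in 2 libraries. Hoxa13 held 45, more than 98.1% of 32817 promoters, whose median was 7, and had peaks in 4 libraries. Hoxa9 held 4. Windows were matched for 8 of the 9 genes. The peak-free 61.6 kb had 29.2 CpGs per kb and the stretch from there to Hoxa13 had 32.5.

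**Figure D3:**
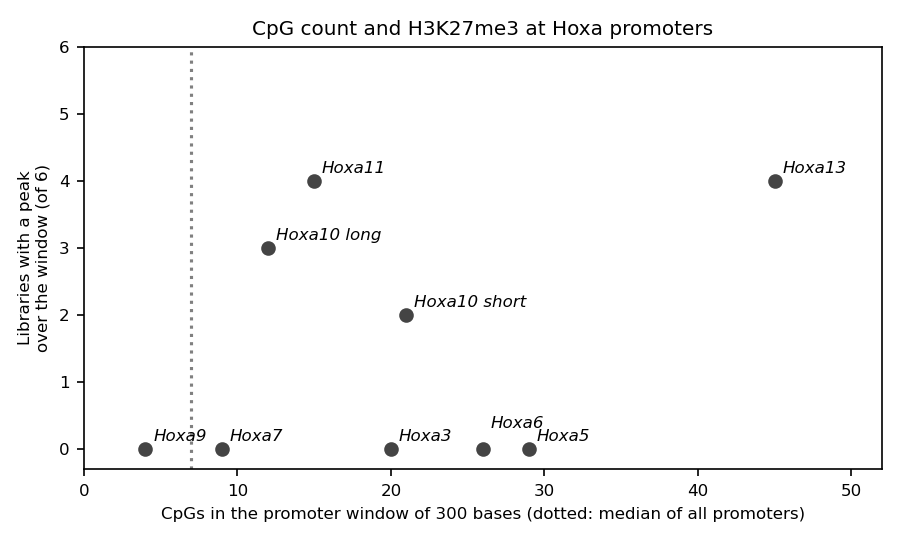
Number of CpGs in each promoter window of 300 bases (x axis; dotted line, median of all promoters, 7) against the number of the 6 libraries with a peak over that window (y axis). Hoxa5 and Hoxa6, with 29 and 26 CpGs, had 0 libraries, and Hoxa11, with 15, had 4.

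Sequence motifs were searched on both strands. The core CTCF motif had 0 matches in the cluster, whereas 23.3% of genome windows of the cluster's length held one, and says only that this exact core is not in these letters. Retinoic acid receptor direct repeats were built from the half-site AGGTCA, from its variant AGTTCA, from a further variant, GGGTCA, or from the last form considered, GGTTCA. With a spacer of 2 there was 1 match, agttcagaaggtca (chr6:52233816-52233829, plus strand), in the body of Hoxa10, 1123 bp downstream of the start of the short transcript and under a peak in 1 library. With a spacer of 5 there was 1 match, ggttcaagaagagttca (chr6:52175533-52175549, minus strand), in the body of Hoxa3 and under no peak. Of windows of the same length, 60.0 and 30.3% held such a repeat. None of the promoter windows of the genes held any of these motifs, which 0.390, 0.268 and 0.0975% of all promoters did for the CTCF core and the repeats with a spacer of 2 and 5.

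The division was set beside the other Hox clusters. For paralog groups 3 to 9, a start site was inside a peak in at least 1 library for 0 of 6 Hoxa genes, 4 of 7 Hoxb genes, 5 of 5 Hoxc genes and 4 of 4 Hoxd genes. For groups 10 to 13 the counts were 3 of 3, 1 of 1, 4 of 4 and 4 of 4, against 3172 of all 21938 coding genes. Counted in all 4 libraries with 75 bp reads (7.1% of coding genes), groups 3 to 9 gave 0 of 6, 1 of 7, 3 of 5 and 2 of 4 genes, and groups 10 to 13 gave 0 of 3, 1 of 1, 3 of 4 and 3 of 4. No Hoxa gene of either range thus had a start site in a peak in all 4. Hoxb2 to Hoxb5 were also without a start site in a peak, although Hoxb5 had a promoter peak in 6 of 6 libraries, and Hoxb2, Hoxb3 and Hoxb4 had none.

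**Figure D4:**
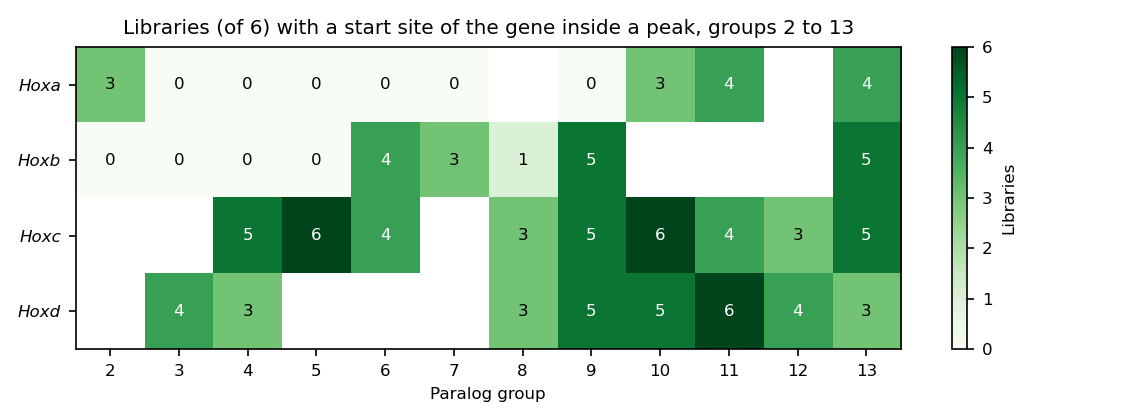
Number of the 6 libraries in which a start site of the gene was inside a peak, by cluster (rows) and paralog group (columns); blank cells have no gene. Hoxa3 to Hoxa9 read 0, and Hoxa10, Hoxa11 and Hoxa13 read 3, 4 and 4.

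Peaks covered 23.1, 19.5 and 10.7% of the whole Hoxa cluster in WT, against 29.5, 27.1 and 14.504% in KO. Within libraries, this was 1.01 percentage points more than Hoxb (exact sign-flip p = 0.844, lower in 2 of 6 libraries). The difference from Hoxc was -32.1 ± 28.2 points (SD, n = 6, exact sign-flip p = 0.0938) and from Hoxd -31.2 ± 24.7 points (exact sign-flip p = 0.0625), each lower in 5 of 6 libraries. Adjusted over the 3 comparisons, the exact p was 0.844, 0.141 and 0.141, so no difference passed. The exception was WT replicate 3 in both cases, in which Hoxa was the most covered of the clusters.

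A promoter peak in at least 1 library was held by 15.8% of all coding genes, and by 6 of 13 partners and regulators of Hox proteins. These were the cofactor genes Meis2 (3 WT and 2 KO libraries), Meis3 (2 and 3) and Pknox2 (3 and 3), and the caudal genes Cdx1 (3 and 3), Cdx2 (3 and 3) and Cdx4 (2 and 1), which activate Hox genes in the embryo. Pbx2, Pbx3, Pbx4, Meis1, Pknox1, Kmt2a and Men1 had none. The 3 genes outside Hox clusters nearest to the median coverage profile of the 9 genes (Euclidean distance over 6 libraries) were Gnai1, Gabrg1 and Tnrc18, each covered only in KO replicate 1, to between 2.51 and 2.61%. The median profile was 0 in the other 5 libraries, and its value of 2.56% in KO replicate 1 was that of Hoxa9.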

How the data were processed

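H3K27me3 CUT&Tag peaks of 6 libraries (3 WT, 3 KO) were analysed. The authors trimmed reads (Trim Galore 0.6.6), aligned them to GRCm38 (Bowtie2 2.4.4), removed duplicates and ran SEACR 1.3 (stringent, no IgG control) library by library. The deposited signal columns hold the total and maximum fragment coverage of each peak, unscaled, so they rise with depth. Read totals were not used, and peak numbers are only a rough guide to depth. In the study's reporting summary, WT replicate 1 has more uniquely mapped reads than KO replicate 1, but fewer peaks. The labels do not tie libraries to embryos. The study calls the replicates independent in its reporting summary, but a figure legend counts fewer experiments than replicates, so libraries may share an experiment, and p-values measure only the spread between libraries.

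Gene models were GENCODE M21, which differs from the annotation of the authors. A peak counted with an overlap of at least 1 bp. limma 3.58.1 (R 4.3.3, trend and robust, Benjamini-Hochberg at 0.05) was fitted to percent of locus covered and to log2 total signal centred on library medians, and was tested on simulated data. Python 3.11.15 and numpy 2.4.6 did the rest. Single values were compared by exact permutation over 20 assignments or by exact sign flips. Same-numbered WT and KO libraries deviated together over 717 shared regions (r of 0.27, 0.31 and 0.47), although WT replicate 2 and KO replicate 1 also did (0.27), so the numbers were taken to pair the libraries in an alternative fit.

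Some items are not reported here. The genes and lists were chosen with earlier results of these data known. Genes named were the 9 Hoxa genes, their neighbours, Nfkbia, paralogs by counts, fixed lists of partners and markers, and the 3 genes nearest in profile. Alternatives left out libraries, matched peak numbers, and changed windows, filters, scaling and weights.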

Additional observations from a re-analysis of the deposited data

How the results depend on the processing

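No gene or region passed the adjusted threshold in limma in any alternative for coverage or signal, the replicate block included, so the block changed no call. In the replicate block, KO minus WT was 19.9 points for Hoxa13 (SE 18.2, limma adjusted p = 0.901). The WT count of genes with a promoter peak in all 3 libraries was 2, and became 1 with equal numbers of top peaks, 1 within 1 kb of a start site and 0 for the start site itself. The count in all 6 libraries fell from 2 to 1, 1 and 0 in the same settings, and to 1 with peaks above the library median. Both counts rose to 3 without WT replicate 3, with replicates 1 and 2 only and with 2 of 3 libraries. The KO count, 3, rose to 4 without KO replicate 3, with replicates 1 and 2 only and with 2 of 3 libraries, and fell to 2 with equal numbers of top peaks, peaks above the median, 1 kb windows or the start site itself. The upper end of the peak-free stretch changed sign with peaks above the median (0.438 kb), and without single libraries it ranged from -3.9995 to 1.75 kb. Without single libraries the lower end ranged from 2.10 to 8.37 kb and the length from -1.4 to -12.4 kb, and with equal numbers of top peaks they were 0.265 and -1.71 kb. Hoxa minus Hoxb was -0.14 points with replicates 1 and 2 only and ranged from -0.275 to 4.11 points without single libraries, and was 6.64 with equal numbers of top peaks (exact sign-flip p = 0.0938, adjusted) and 4.35 with peaks above the median. Hoxa minus Hoxc was -49.7 points with replicates 1 and 2 only. KO minus WT coverage turned for Hoxa10 without WT replicate 3 (-0.29 points), KO replicate 1 (-0.49) or KO replicate 2 (-1.87), for Hoxa11 without WT replicate 3 (-5.66) or either of KO replicates 1 and 2 (-2.64 each) and over the body alone (-8.98), and for Hoxa13 without WT replicate 3 (-7.81) and with replicates 1 and 2 only (-1.60). For Hoxa9 the difference was between 3.43 and 8.18 points without single libraries, where it could be fitted, and 10.4 with array weights. The log2 signal over Hoxa10 and Hoxa11 turned with array weights (0.10), without WT replicate 3 and with replicates 1 and 2 only (0.26). Without single libraries the differences reached 31.6 points for Hoxa10, 21.3 for Hoxa11 and 37.1 for Hoxa13, and the log2 signal ranged from -0.52 to 0.066. With equal numbers of top peaks, KO minus WT coverage was 16.3 points for Hoxa10, 8.70 for Hoxa11 and 2.88 for Hoxa13. The causes were not tested.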
